A study of Homo sapiens with 6 samples.

Results

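Kasumi-1 cells are an established line from acute myeloid leukemia with the RUNX1-RUNX1T1 (AML1-ETO) fusion. I13, an indole-3-butyric acid containing inhibitor of histone deacetylases (HDACs), was applied at 0.5 µM, and the mRNA of treated and control cells was sequenced after 48 h. There were 3 control libraries, which the methods describe as DMSO at the matching concentration, and 3 I13 libraries, all of the same cell line. The methods speak of independent experiments in general, and the paper's caption on the sequencing calls its figures representative of 3 of them. The labels do not say that the libraries of a group came from separate cultures, so p-values measure the spread between these libraries, which may be technical. The genes described here are those of the tubulin isotypes and of tubulin acetylation, 10 of the 32364 genes in the table, taken by name. They are the α-tubulin genes TUBA1A, TUBA1B, TUBA1C and TUBA4A, the β-tubulin genes TUBB, TUBB2A, TUBB4B and TUBB6, the γ-tubulin gene TUBG1, and ATAT1, which encodes the α-tubulin acetyltransferase. Of these, 9 reached a mean of 0.1 FPKM (sequenced fragments scaled by exon length and by the depth of the library) and were tested. TUBB2A was below that minimum and is given by its fragments.

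Microtubules are built from dimers of α-tubulin and β-tubulin, and γ-tubulin, held in a ring complex, starts their growth. Cells carry several isotypes of each, which differ in the acidic tail at the end of the protein, among other places. Enzymes add or remove tyrosine, glutamate and glycine in that tail. ATAT1 acetylates lysine 40 of α-tubulin inside the microtubule, and HDAC6 and SIRT2 remove that acetyl group. HDAC6 is one of the enzymes that broad HDAC inhibitors can block, and the paper cites an earlier enzyme assay in which I13 inhibited it. Whether the mRNA of these genes changed in cells given I13 is the question read here. The libraries measured mRNA, so acetylation and protein were not observed, and in bulk RNA fewer expressing cells and less mRNA per cell cannot be told apart.

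The lysine codon that ATAT1 acts on is shown first, because it is the site that gives the α-tubulin genes their place in this set. The stretches below run from codon 36 to codon 45 of the coding sequence, with codon 40 in capitals, and were read from GENCODE 29 transcripts on GRCh38. They lie in a coding exon at chr12:49186702-49186731 for TUBA1A (minus strand), chr12:49129591-49129620 for TUBA1B (minus strand), chr12:49269567-49269596 for TUBA1C (plus strand) and chr2:219252099-219252128 for TUBA4A (minus strand).
TUBA1A: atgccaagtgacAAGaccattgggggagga
TUBA1B: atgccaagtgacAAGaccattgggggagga
TUBA1C: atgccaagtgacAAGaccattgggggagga
TUBA4A: atgcccagtgacAAGaccattggtggaggg
All 4 α-tubulin genes had the lysine codon AAG at position 40. TUBA1A, TUBA1B and TUBA1C were identical in letters over the stretch, and TUBA4A differed from them in some letters. Each α-tubulin gene of the set thus carries the codon of the acetylation site in its principal transcript.

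The tails of the β-tubulin genes are shown because they are among the places where those isotypes part from each other. Each stretch is the last 20 codons before the stop codon, with the last codon in capitals, at chr6:30724335-30724394 (TUBB, plus strand), chr6:3153866-3153925 (TUBB2A, minus strand), chr9:137243494-137243553 (TUBB4B, plus strand) and chr18:12326068-12326127 (TUBB6, plus strand).
TUBB: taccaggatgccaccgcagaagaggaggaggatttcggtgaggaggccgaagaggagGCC
TUBB2A: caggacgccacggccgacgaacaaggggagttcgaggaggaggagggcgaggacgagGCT
TUBB4B: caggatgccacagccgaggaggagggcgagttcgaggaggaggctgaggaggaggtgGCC
TUBB6: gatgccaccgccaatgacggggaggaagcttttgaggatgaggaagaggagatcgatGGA
Codons for the acidic residues aspartate and glutamate made up 11 of the 20 in each of these genes. The β-tubulin tails ended in an alanine codon in TUBB, TUBB2A and TUBB4B and in a glycine codon (GGA) in TUBB6.

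Whole proteins, translated from the same transcripts, were 99.6% identical between TUBA1A and TUBA1B, and 98.0% identical between each of them and TUBA1C. TUBA4A was 95.8% identical to TUBA1A. Among the β-tubulins, TUBB and TUBB4B were 97.5% identical, TUBB and TUBB2A 95.3%, and TUBB and TUBB6 90.4%. TUBA1A and TUBB, from different families, shared 41.2%. This likeness bears on the counts. Of the 100-base windows of each gene's principal transcript, 37.2% in TUBA1B, 18.3% in TUBA1A, 14.9% in TUBG1, 11.5% in TUBA1C and 56.4% in TUBB2A also occur in the transcript of another gene, against 5.1% in TUBB, 2.86% in TUBB4B and 0% in TUBB6. How fragments from such stretches were divided is not given in the sources used here, so the levels of TUBA1A, TUBA1B, TUBA1C, TUBB2A and TUBG1 are uncertain to that extent. TUBA1A and TUBA1C also overlap each other in exons on opposite strands. TUBA1B, TUBA4A, TUBB, TUBB4B, TUBB6 and TUBG1 overlap exons of other genes on the opposite strand. Among those are AFG3L2 for TUBB6 and STK16 for TUBA4A. Only TUBB2A and ATAT1 have no such overlap. The library kit keeps the strand, but whether counting used it is not given, so the levels of the overlapping genes are uncertain in this way too.

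Depth ran from 16566742 to 17221345 fragments in the control libraries and from 15281052 to 16682550 in the I13 libraries. The labelled cell type was matched by its defining genes, with RUNX1T1 between 12.5 and 14.4 FPKM and the granule enzyme gene MPO between 10240 and 12450 FPKM. The fibroblast genes COL1A1 and COL1A2 had 0 fragments, and the erythroid genes summed to at most 0.145 FPKM. Of the platelet and megakaryocyte genes, PPBP had 0 fragments and ITGA2B had between 14 and 25 in each library. That list summed to 0.199 to 0.262 FPKM in control and 0.165 to 0.26 in I13 libraries. The B cell genes summed to 1.46 to 1.83 FPKM in control and 1.75 to 2.6 in I13 libraries, and the T cell genes to 0.333 to 0.438 and 0.179 to 0.207. CD3D of the T cell list had 5, 6 and 5 fragments in control and 2 in each I13 library (limma unadjusted p = 0.0205, adjusted p = 0.89). CD33, a myeloid surface antigen of the blast list, was 11.48 ± 0.613 FPKM in control and 13.16 ± 0.483 in I13 libraries (SD, n = 3 each; unadjusted p = 0.0166, adjusted p = 0.89 with limma). The part of either in the results below was not tested. The epithelial list summed to 20.8 to 26.6 and 22.2 to 26.2 FPKM, almost all of it EPCAM. The markers HBB (erythroid), PF4 (platelet), MS4A1 (B cell) and DCN (fibroblast) were not among the deposited genes, so these lists leave them out. Control replicate 3 and I13 replicate 2 stood apart from the other 4 libraries on the first principal component, which held 43.3% of the variance over the 4133 genes that averaged 10 FPKM or more. The second held 20.5% and separated control from I13. Results below are therefore also given within this library pair and within the other 4 libraries.

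None of the 9 tested genes passed the threshold. With limma, 0 of 9 had an adjusted p under 0.05 together with a log2 fold change of 0.58 or more in size, and the same was true of 0% of all 18726 genes tested. At an unadjusted p under 0.05 the count was also 0 of 9, where 5.14% of all genes passed, and the smallest unadjusted p was 0.277 (TUBB6). The groups overlapped in all 9, and were apart in 9.52% of all genes. Limma without a variance trend called 9 genes of the table at the adjusted p and voom on recovered fragments called 4 of the 13814 genes that averaged 10 fragments or more. Neither called any of these, and TUBA4A was too low for voom. The paper's methods state the same cutoffs without naming a program, and the paper reports genes called in both directions from this sequencing. The median log2 fold change was 0.01 over the 9 genes and 0.01 over all genes tested. The median absolute log2 fold change was 0.05, against 0.11 over all genes and 0.05 over the 4133 genes that averaged 10 FPKM or more. These log2 fold changes are on the log2(FPKM + 0.1) scale, which understates the change of low genes.

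**Figure D1:**
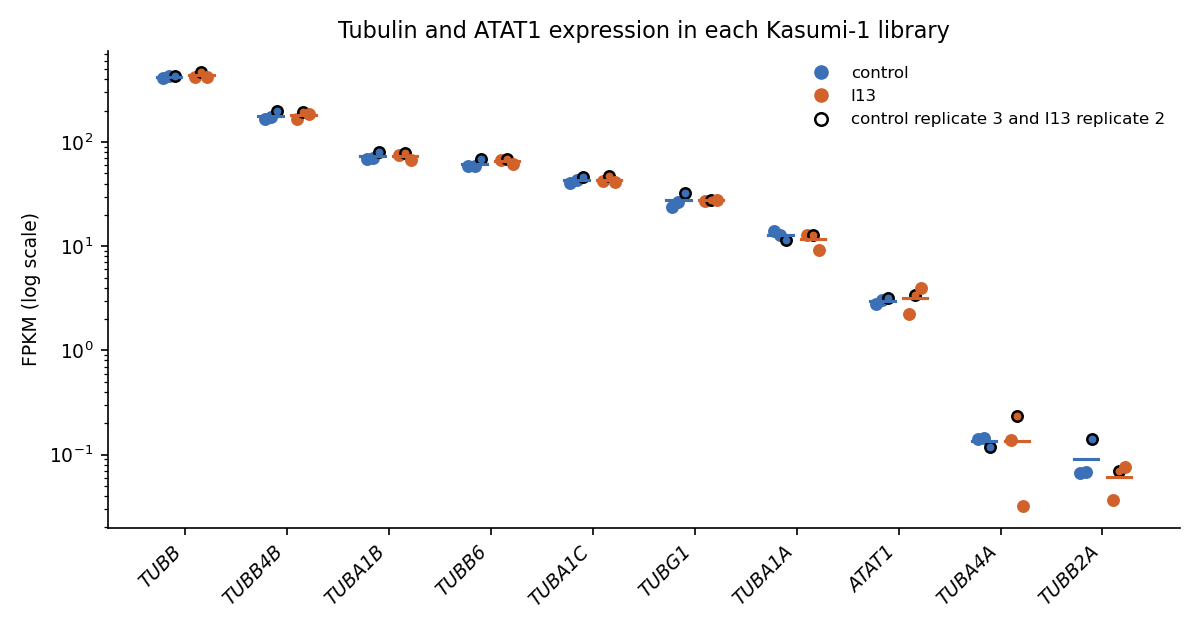
FPKM of the 10 genes in each library on a log axis, with control in blue, I13 in orange, short lines for group means and black rims for control replicate 3 and I13 replicate 2. The levels ran from 407.8 FPKM and above in TUBB to 0.235 FPKM and below in TUBA4A and TUBB2A, and the control and I13 points of each gene overlapped.

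Among the α-tubulins, TUBA1B (ENSG00000123416, chr12:49127782-49131397), a widely expressed α-tubulin, was the highest. It had 68.32, 70.93 and 80.05 FPKM in the control libraries and 74.63, 78.83 and 67.22 FPKM in the I13 libraries. The lowest and the highest library were an I13 and a control library, respectively, so the groups overlapped throughout. The mean was 73.1 ± 6.16 (SD, n = 3) in control and 73.56 ± 5.88 (SD, n = 3) in I13 libraries, a log2 fold change of 0.01 with an interval of -0.18 to 0.20 (limma, adjusted p = 1).

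TUBA1C (ENSG00000167553, chr12:49188736-49274603), its close neighbour on the chromosome, had 40.64, 42.86 and 46.43 FPKM in control and 42.02, 46.82 and 41.22 FPKM in I13 libraries. The highest value in each group came from the library pair that stood apart. The group means, 43.31 and 43.35 FPKM, differed by less than the SD of 2.92 in control and 3.03 in I13 libraries, and the 95% interval of the log2 fold change was -0.17 to 0.17.

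TUBA1A (ENSG00000167552, chr12:49184796-49189324), the α-tubulin best known from developing neurons, was lower. Its values were 13.92, 12.71 and 11.59 FPKM in control and 12.85, 12.86 and 9.182 FPKM in I13 libraries. I13 replicate 3 was the lowest of all 6, and the other I13 libraries lay within the control range. The log2 fold change was -0.14 (SE 0.14, interval -0.48 to 0.19, unadjusted p = 0.345 and adjusted p = 0.993 with limma), the largest in size among the tested genes at this pseudocount. With a pseudocount of 0.01 that of TUBA4A was larger, at -0.32 against -0.14.

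TUBA4A (ENSG00000127824, chr2:219249711-219278170), an isotype prominent in platelets and their precursors, was close to the limit of the depth. It had 10, 10 and 8 fragments in control and 9, 16 and 2 fragments in I13 libraries, or 0.118 to 0.143 and 0.0321 to 0.235 FPKM. The I13 libraries spread on both sides of the control libraries. The summed fragments were 28 in control and 27 in I13 libraries, an I13 to control ratio of 1.03 per fragment sequenced with a 95% counting interval of 0.582 to 1.81. That interval held both a drop and a rise and leaves out the spread between libraries. The limma interval, on the log2(FPKM + 0.1) scale, was wider, a fold of 0.431 to 2.04.

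TUBB (ENSG00000196230, chr6:30720201-30725426), the general β-tubulin, had the highest level of the set and ranked 76 in mean FPKM among all genes. The control libraries had 407.8, 426.2 and 434.8 FPKM and the I13 libraries 423.8, 465.9 and 424.5 FPKM. I13 replicate 2 was above every control library, and the other I13 libraries lay between control replicates 1 and 2. The means were 422.9 ± 13.8 and 438.0 ± 24.1 FPKM (SD, n = 3 each), a fold of 1.04 with a 95% interval of 0.944 to 1.14 (limma, adjusted p = 0.995).

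TUBB4B (ENSG00000188229, chr9:137241213-137243707), a widely expressed β-tubulin also used in cilia, was second. Its values were 165.3, 174.0 and 199.2 FPKM in control and 167.9, 196.3 and 184.6 FPKM in I13 libraries. All I13 libraries lay inside the control range. The log2 fold change was 0.03 with an interval of -0.17 to 0.23.

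TUBB6 (ENSG00000176014, chr18:12307669-12344320), the most divergent β-tubulin of the set by protein identity to TUBB, had 58.28, 59.2 and 68.12 FPKM in control and 66.94, 68.81 and 61.37 FPKM in I13 libraries. I13 libraries were above control replicates 1 and 2, and control replicate 3 was above all but the highest of them. The means were 61.86 ± 5.44 and 65.71 ± 3.87 FPKM (SD, n = 3 each), a fold of 1.06 with a 95% interval of 0.94 to 1.2 (limma, unadjusted p = 0.277 and adjusted p = 0.983). With control replicate 3 left out, limma gave a log2 fold change of 0.16 and an unadjusted p of 0.044, and the smallest adjusted p over the fits that left out 1 library was 0.771.

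TUBB2A (ENSG00000137267, chr6:3153669-3157526), a β-tubulin abundant in neurons, had 2, 2 and 4 fragments in control and 1, 2 and 2 in I13 libraries. Every library had at least 1 fragment and none more than 4. The sums of 8 and 5 gave an I13 to control ratio of 0.665 per fragment sequenced, with a 95% counting interval of 0.171 to 2.31. That interval held both a drop and a rise and leaves out the spread between libraries.

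TUBG1 (ENSG00000131462, chr17:42609676-42615234), the γ-tubulin of the nucleating ring, had 24.04, 26.66 and 32.37 FPKM in control and 27.14, 27.9 and 27.6 FPKM in I13 libraries. The I13 libraries lay close together in the middle of a wider control range, with an SD of 0.379 against 4.26 in control. The log2 fold change was 0.00 (interval -0.24 to 0.25, limma).

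ATAT1 (ENSG00000137343, chr6:30626842-30646823), the acetyltransferase for lysine 40, was expressed at a low but measurable level. It had 192, 210 and 214 fragments in control and 143, 227 and 245 in I13 libraries, or 2.763, 3.033 and 3.201 FPKM and 2.226, 3.372 and 3.973 FPKM. The I13 libraries included both the lowest and the highest of the 6. The log2 fold change was 0.05 (SE 0.2, interval -0.43 to 0.53, limma unadjusted p = 0.81). That interval held both a drop and a rise, so these libraries do not settle whether ATAT1 changed within it.

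The enzymes on the opposite side of the reaction were at a higher level per exon length than ATAT1. HDAC6, the main α-tubulin deacetylase of the cytoplasm, had 5.9, 5.86 and 6.731 FPKM in control and 5.694, 5.481 and 5.763 FPKM in I13 libraries. Every I13 library was below every control library, with 5.86 FPKM in the lowest control and 5.763 FPKM in the highest I13 library, and groups were apart in this way, in either direction, in 9.52% of all genes. The log2 fold change was -0.12 (SE 0.08, interval -0.31 to 0.06, limma unadjusted p = 0.167 and adjusted p = 0.983), and it was -0.04 within the 4 libraries outside the pair and -0.29 within the pair. SIRT2, the NAD-dependent deacetylase, had 6.475, 7.949 and 9.339 FPKM in control and 7.72, 7.705 and 7.434 FPKM in I13 libraries. The I13 values fell within the control range, with a log2 fold change of -0.04 (interval -0.34 to 0.26).

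**Figure D2:**
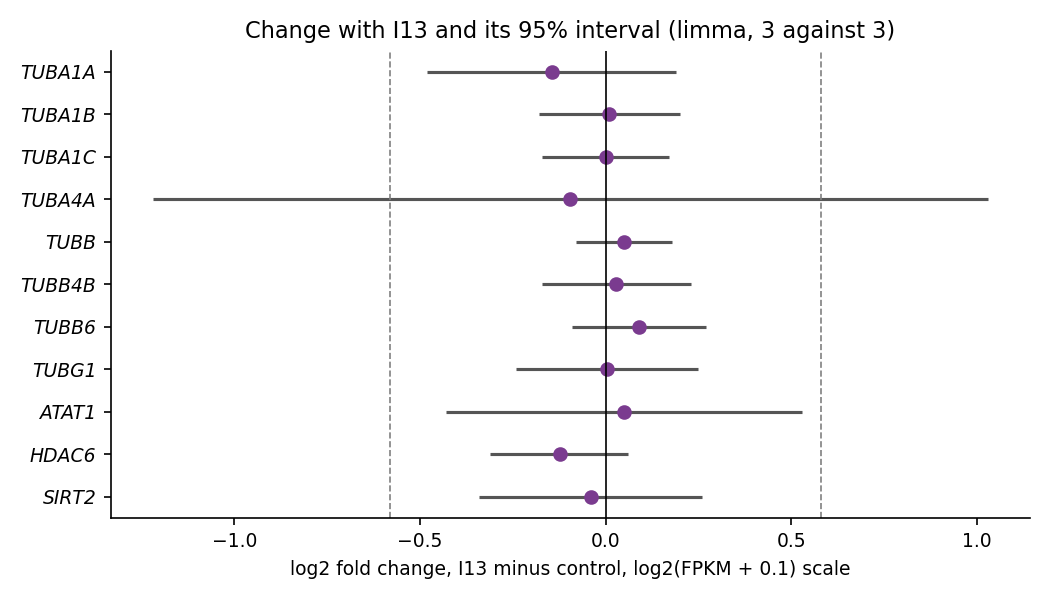
Log2 fold change of I13 against control (points) with the 95% interval of the limma fit (lines) for the 9 tested genes and the deacetylase genes HDAC6 and SIRT2; dashed lines mark ±0.58. Every interval included 0, and of those shown only TUBA4A had an interval that reached past the dashed lines.

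Ordered by mean FPKM over the 6 libraries, the set ran TUBB, TUBB4B, TUBA1B, TUBB6, TUBA1C, TUBG1, TUBA1A, ATAT1, TUBA4A and TUBB2A. The mean of TUBB was 2.38 times that of TUBB4B, which was 2.47 times that of TUBA1B. The ranges over libraries were apart for all neighbours in this order except 2 pairs. TUBA1B and TUBB6 overlapped in range, although TUBA1B was the higher in 6 of 6 libraries, with a ratio of means of 1.15. TUBA4A and TUBB2A also overlapped, with TUBA4A the higher in 4 of 6. FPKM divides by all annotated exon bases of a gene, which for TUBA1B are 3574 bases against 1627 in the principal transcript, and for TUBB 3359 against 2670. The order was the same when fragments were divided by the length of the principal transcript, but the ratios and overlaps were not. On that scale TUBB4B averaged 234 and TUBA1B 161. The lowest TUBA1B value, 148, was then above the highest of TUBB6, 137.

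The α-tubulin sum over the 4 genes of the set was 123.0, 126.6 and 138.2 FPKM in control libraries. It was 129.6, 138.7 and 117.7 FPKM in I13 libraries. The means, 129.3 ± 7.93 and 128.7 ± 10.6 FPKM (SD, n = 3 each), did not differ beyond the spread (exact permutation test over libraries, two-sided, p = 1). The β-tubulin sum over 4 genes was 631.5, 659.5 and 702.2 FPKM in control and 658.6, 731.1 and 670.5 FPKM in I13 libraries. Its means of 664.4 ± 35.6 and 686.7 ± 38.8 FPKM (SD, n = 3 each) gave an exact permutation p of 0.6, where the smallest p that 3 against 3 can give is 0.1. Such a test could therefore not pass 0.05 for any of these sums and shares. Tubulin genes outside the set are left out of the sums. Among them, TUBA3D averaged 1.806 FPKM in control and 1.816 in I13 libraries, and TUBB4A 3.74 and 4.898.

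The β-tubulin to α-tubulin ratio was 5.133, 5.207 and 5.081 in control and 5.08, 5.269 and 5.699 in I13 libraries. I13 replicate 3, which had the lowest α-tubulin sum, had the highest ratio, and the groups overlapped (means 5.141 and 5.35, exact permutation p = 0.4). The size of this ratio rested on the length used. Per principal transcript length it was 3.544 in control and 3.689 in I13 libraries.

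TUBA1B held 56.49% ± 1.27 of the α-tubulin sum in control and 57.17% ± 0.379 in I13 libraries (SD, n = 3 each). TUBA1C held 33.49% ± 0.415 and 33.73% ± 1.31, and TUBA1A 9.912% ± 1.47 and 8.996% ± 1.08. TUBA4A held 0.105% ± 0.0166 and 0.101% ± 0.0713. Among the β-tubulins, TUBB held 63.71% ± 1.56 and 63.79% ± 0.523, TUBB4B 26.98% ± 1.21 and 26.62% ± 1.04, and TUBB6 9.302% ± 0.367 and 9.576% ± 0.525. TUBB2A held 0.0136% in control and 0.00877% in I13 libraries. Over the 8 shares the exact permutation p was between 0.3 and 1, and the lowest after Benjamini-Hochberg adjustment over the 8 was 0.914. A share is taken within a library and does not move with the scaling between libraries. Its size does depend on the length used. Per principal transcript length, the control means were 64.07% for TUBA1B, 26.68% for TUBA1C, 60.04% for TUBB and 13.9% for TUBB6.

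**Figure D3:**
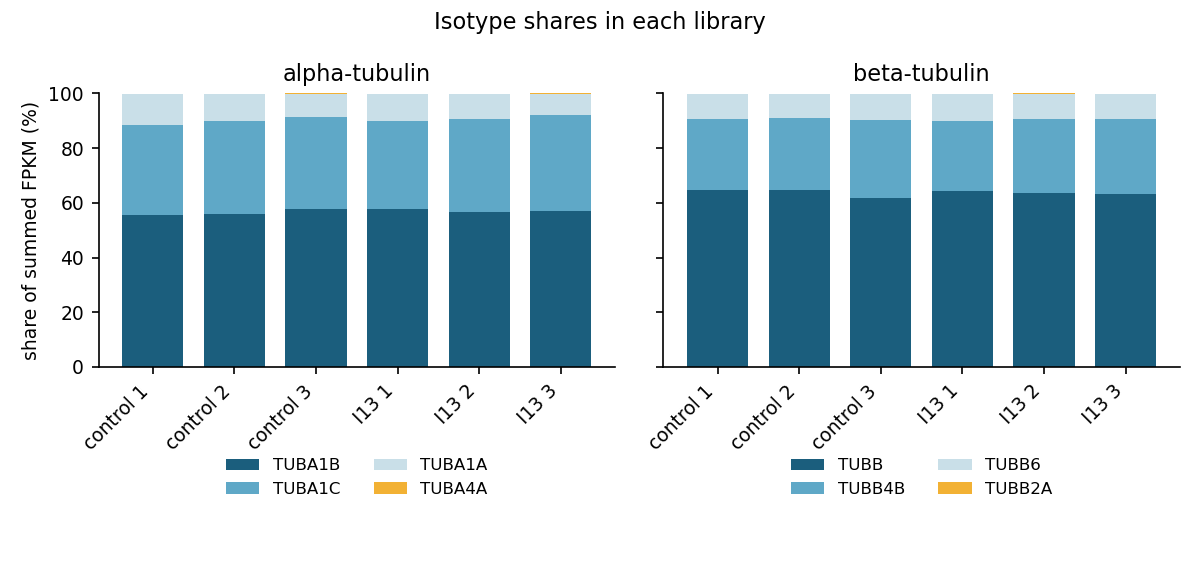
Share of each isotype in the summed FPKM of the α-tubulin (left) and β-tubulin (right) genes of the set. Stacked bars give percent for each of the 6 libraries. TUBA1B held between 55.54% and 57.93% of the α-tubulin sum and TUBB between 61.91% and 64.63% of the β-tubulin sum in every library. TUBA4A and TUBB2A are too small to see.

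The pair of libraries that stood apart carried much of the spread. Control replicate 3 and I13 replicate 2 were the highest 2 libraries in 6 of the 9 tested genes, namely TUBA1B, TUBA1C, TUBB, TUBB4B, TUBB6 and TUBG1. The same was true of 10.3% of all genes tested, and of 25.5% of the 4133 genes that averaged 10 FPKM or more, among which 7 of these 9 genes fall. TUBA1A, TUBA4A and ATAT1 did not follow that pattern. Within the 4 other libraries the log2 fold change with I13 was -0.29 for TUBA1A, 0.11 for TUBG1 and 0.13 for TUBB6, and within the pair it was 0.15, -0.21 and 0.01 for the same genes. TUBA1A, TUBA1B, TUBA1C, TUBA4A, TUBB4B and TUBG1 had opposite signs in these sets, while TUBB was 0.02 and 0.10, and ATAT1 0.04 and 0.07. What set the pair apart was not tested.

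**Figure D4:**
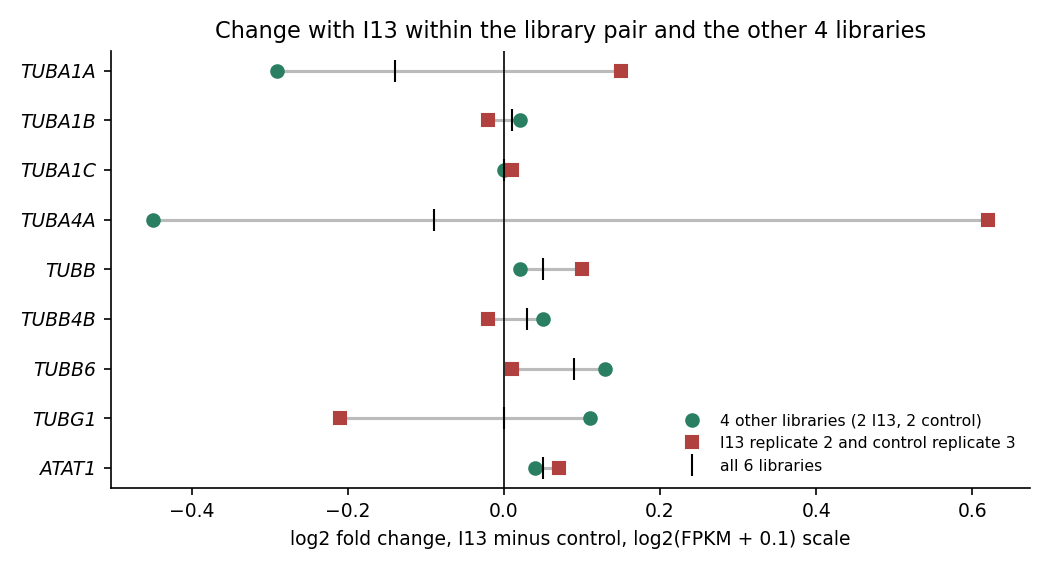
Log2 fold change of I13 against control for the 9 tested genes within the 4 libraries outside the pair (circles), within control replicate 3 and I13 replicate 2 (squares) and over all 6 libraries (ticks). TUBA4A, with few fragments, ran from -0.45 to 0.62, and TUBA1C had the closest values.

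The other genes that make, modify and read tubulin were read from 8 lists, 90 genes in all, of which 87 were in the table and 73 were tested. Of these 73, 1 had a higher level in I13 libraries at an unadjusted p under 0.05 (limma; 5.14% of all genes in either direction), 0 had a lower level, and 0 passed the adjusted p. Groups were apart in 4 of the 73, higher in 3 and lower in 1, where 9.52% of all genes were apart. The median log2 fold change was 0.00, with 38 genes above 0 and 35 below.

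The gene past the unadjusted p was TUBB4A, a β-tubulin best known from the brain. It had 3.451, 3.363 and 4.406 FPKM in control and 5.128, 5.413 and 4.154 FPKM in I13 libraries. I13 replicate 3 lay below the highest control library, so the groups overlapped. The means were 3.74 ± 0.579 and 4.898 ± 0.66 FPKM (SD, n = 3 each), a log2 fold change of 0.38 (SE 0.14, interval 0.05 to 0.72, limma unadjusted p = 0.0313 and adjusted p = 0.947). It was 0.43 within the 4 libraries outside the pair and 0.29 within it. Leaving out 1 library at a time gave unadjusted p-values from 0.0131 to 0.117. The level of TUBB4A was far below that of TUBB, TUBB4B and TUBB6 in every library.

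Among the 6 tested of 13 other tubulin genes, the δ-tubulin gene TUBD1 was 2.791 FPKM in control and 2.691 in I13 libraries. TUBB2B and TUBB8 had 0 fragments in every library, and TUBB3 had 1 fragment in 1 I13 library. Over the 14 tested tail enzymes, 7 were above 0 and 7 below. TTLL12, a member of the tubulin tyrosine ligase-like family, was 71.06 ± 6.88 FPKM in control and 74.31 ± 4.77 in I13 libraries (SD, n = 3 each), and the deglutamylase gene AGBL5 was 9.644 and 9.503 FPKM. TTL, which puts the final tyrosine back and was chosen after its values were seen, was 5.049 and 4.819 FPKM with a log2 fold change of -0.07 (interval -0.24 to 0.10).

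Tubulin folds inside the CCT chaperonin with help from prefoldin and the tubulin cofactors, and all 20 measured genes of that list were tested. None passed the unadjusted p, 10 were above 0 and 10 below. The chaperonin subunit CCT3 was 119.5 ± 3.23 FPKM in control and 125.9 ± 3.79 in I13 libraries, and CCT7 was 125.0 ± 4.52 and 128.3 ± 5.16 FPKM (SD, n = 3 each). In the γ-tubulin ring complex 0 of 10 passed, and the small subunit genes MZT1 and MZT2A were 19.28 and 46.33 FPKM in control and 19.14 and 49.7 FPKM in I13 libraries. Neither ring component differed beyond its spread.

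Of the 12 tested microtubule binding genes, 9 were above 0 and 3 below, and none passed. STMN1, which sequesters tubulin dimers, was 91.57 ± 3.46 and 93.81 ± 0.609 FPKM, and the plus-end protein gene MAPRE1 was 57.79 ± 1.52 and 58.81 ± 2.7 FPKM (SD, n = 3 each). In the microtubule severing list 0 of 5 passed, and FIGNL1, a relative of the severing enzyme fidgetin, was 9.835 FPKM in control and 10.62 FPKM in I13 libraries.

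Cells also adjust tubulin mRNA to the amount of free tubulin, by a factor, TTC5, that binds the start of the nascent protein and passes the mRNA to be degraded. The first codons of the β-tubulin genes, with the start codon in capitals, are shown because they are where that control acts.
TUBB: ATGagggaaatc
TUBB2A: ATGcgcgagatc
TUBB4B: ATGagggaaatc
TUBB6: ATGagggagatc
The 4 genes spell the same residues, methionine, arginine, glutamate and isoleucine. TUBB and TUBB4B had the same letters, and TUBB2A and TUBB6 each differed from them in some letters. In the autoregulation list 0 of 4 genes passed the unadjusted p. CNOT10 and CNOT11, parts of the deadenylase complex, were 8.687 and 25.23 FPKM in control and 8.903 and 26.82 FPKM in I13 libraries. TTC5 had 1.789, 1.753 and 1.984 FPKM in control and 1.993, 2.014 and 2.266 FPKM in I13 libraries, so the groups were apart, and its log2 fold change was 0.17 (interval -0.10 to 0.44, limma unadjusted p = 0.173). AGBL3 and MAP7D1 were the other genes of these lists with I13 above control in every library, with log2 fold changes of 0.45 (unadjusted p = 0.143) and 0.11 (unadjusted p = 0.154). TTC5, AGBL3 and MAP7D1 were chosen after their values were seen.

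Tubulin use is tied to division, so mitotic genes were read beside it. All 8 were tested and 0 passed the unadjusted p, with a median log2 fold change of 0.01. TOP2A was 62.46 ± 3.79 FPKM in control and 64.59 ± 7.71 in I13 libraries, and the cyclin gene CCNB1 was 57.02 ± 3.47 and 59.21 ± 1.65 FPKM (SD, n = 3 each). By flow cytometry, the paper reports a share of Kasumi-1 cells in G0/G1 that rose with treatment time at this dose. These mRNA levels do not measure that share.

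**Figure D5:**
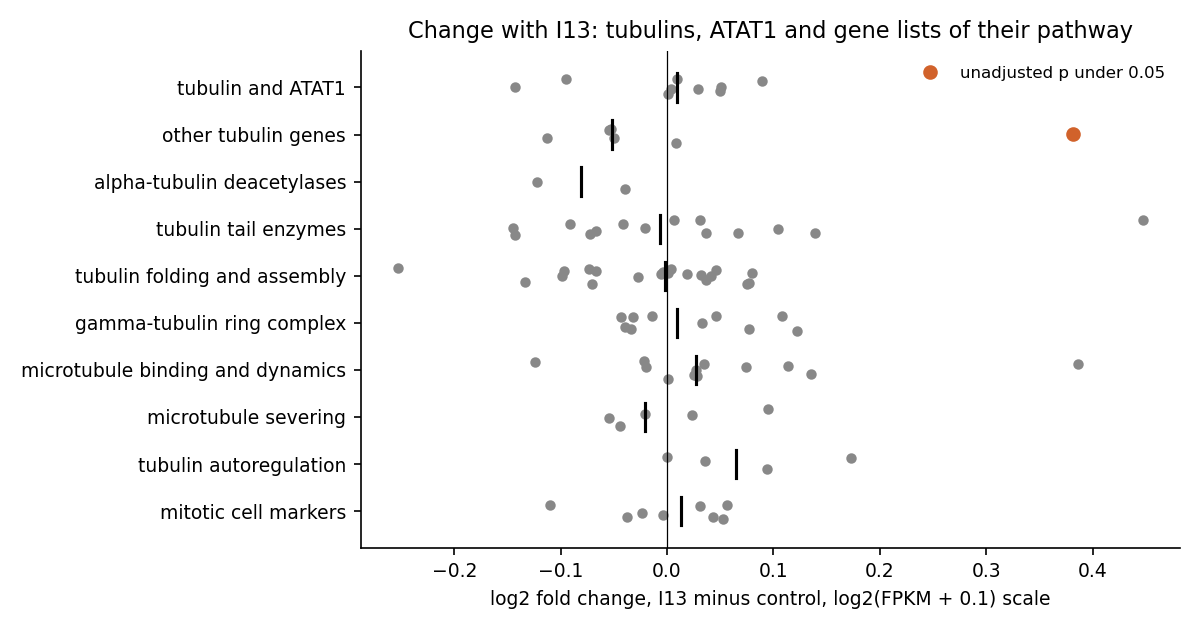
Log2 fold change of I13 against control for the tested tubulin and ATAT1 genes and for 8 lists of their pathway and the mitotic genes, 1 point per gene and a line for the median of each row. TUBB4A, in orange at 0.38, was the 1 point with an unadjusted p under 0.05; AGBL3 lay farther right, at 0.45.

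By the likeness of their centred log2 profiles over the 6 libraries, the genes closest to TUBA1B were YKT6, MRPL17 and PHB, with root mean square differences of 0.026, 0.028 and 0.029, against a median of 0.114 over 4133 genes. Those closest to TUBB were DNMT1, SAP30BP and RAN, at 0.015, 0.017 and 0.017, against a median of 0.091. RAN, for example, had 122.4, 126.8 and 131.8 FPKM in control and 127.6, 136.0 and 126.2 FPKM in I13 libraries. The points share their libraries and depth, and all of these genes had their lowest values outside the pair.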

How the data were processed

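mRNA of 3 control and 3 I13-treated Kasumi-1 samples was sequenced. The values deposited by the authors are FPKM per gene and library, in 1 table, and were not rescaled. The submitters' processing notes name Trimmomatic, HISAT2, Cufflinks, HTSeq and hg38, whose versions and settings, and any use of strand in counting, the sources used here do not give. Fragments were recovered from FPKM with GENCODE 29 exon lengths (25773 of 27002 genes, 95.4%, whole within 0.01). Intervals from fragments cover counting error only.

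Expression on the log2(FPKM + 0.1) scale was compared by limma 3.58.1 (R 4.3.3) with a variance trend. It was fitted to the 18726 genes that averaged 0.1 FPKM or more, and p-values were adjusted over all of them by Benjamini-Hochberg. Voom on fragments was an alternative. Both methods were tried on simulated counts in which no library pair stood apart, so that trial does not cover this feature of the data. Sums, shares and their ratio were compared by exact permutation in scipy 1.17.1. Sequences were read with Biopython 1.88 from GENCODE 29 (GRCh38).

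The genes and lists were chosen with earlier results of these data known. From each pathway list the text names genes with an unadjusted p under 0.05, or otherwise the 2 with the highest mean FPKM, and always HDAC6 and SIRT2. Of the marker lists it gives summed levels and some genes. For TUBA1B and TUBB it names the 3 most similar profiles among genes that averaged 10 FPKM or more. Alternatives were other pseudocounts, filters and scalings, each library left out, the replicate number as a block and, added after seeing the data, a pair term in the voom fit and principal transcript lengths. Values of some items that these rules cover are not reported here.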

Additional observations from a re-analysis of the deposited data

How the results depend on the processing

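Over 361 alternative values, 307 kept their direction and, where there was one, side of the threshold, or were counts that stayed within 1.5 times. A further 49 had the opposite sign, and 5 counts moved from 0 or by over 1.5 times. The 307 overstate stability, because some settings cannot move an estimate. The replicate block, the limma pair term, the variance settings and the filters leave a gene's log2 fold change as it was. The replicate block does the same for sums, shares and the ratio. No fit across all genes gave any of the 9 tested genes it held an adjusted p under 0.05. Over all genes, limma without a trend called 9, voom 4 and voom with a pair term 15 at the adjusted p, against 0, and a minimum mean FPKM of 1 left 582 with an unadjusted p under 0.05, against 963 (fewer genes tested). The correlations of same-numbered deviations were 0.32, -0.379 and -0.297 for replicates 1, 2 and 3. Replicates 2 and 3 each set a library of the pair against one outside it. Whether replicate numbers pair the samples therefore cannot be told from these correlations, and the labels do not say. A replicate block gave 0 adjusted and 862 unadjusted calls.

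Within the library pair alone the log2 fold change was 0.149 for TUBA1A, -0.0222 for TUBA1B, 0.618 for TUBA4A, -0.0213 for TUBB4B and -0.214 for TUBG1, the α-tubulin sum differed by 0.548 FPKM, and the shares differed by 0.881 percentage points for TUBA1A, -1.11 for TUBA1B, 0.0838 for TUBA4A and -0.288 for TUBB6. Within the other 4 libraries it was -0.0041 for TUBA1C, and the shares of TUBB and TUBB4B differed by -0.783 and 0.229 points. Median scaling gave -0.00539 for TUBA1C and -0.00308 for TUBG1. Quantile normalization gave -0.014 for TUBA1C, -0.0431 for TUBB, -0.00809 for TUBB4B and -3.99e-05 for TUBG1. Voom with the pair term gave -0.00376 for TUBG1, and principal transcript lengths gave -0.0107 points for the share of TUBB. Apart from results that left out a library, the values listed in this paragraph are those with the opposite sign to the main result. Values that kept its sign are left out. The cause of the opposite signs was not tested.

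Without 1 library at a time, 784 to 1295 genes passed the unadjusted p and 0 the adjusted p, and 0 to 1 of the 9 genes passed the unadjusted p (TUBB6, without control replicate 3). The log2 fold change ranged from -0.224 to 0.017 for TUBA1A, -0.0422 to 0.0764 for TUBA1B, -0.0552 to 0.0524 for TUBA1C, -0.4 to 0.272 for TUBA4A, 0.00457 to 0.0729 for TUBB, -0.0283 to 0.106 for TUBB4B, 0.0475 to 0.16 for TUBB6, -0.0926 to 0.121 for TUBG1 and -0.123 to 0.282 for ATAT1. The α-tubulin sum differed by -5.64 to 4.91 FPKM and the β-tubulin sum by 0.181 to 41.3 FPKM, and their ratio by 0.0341 to 0.343. The shares differed by -1.68 to -0.216 points for TUBA1A, 0.204 to 1.4 for TUBA1B, -0.415 to 0.898 for TUBA1C, -0.0376 to 0.0334 for TUBA4A, -0.816 to 0.545 for TUBB, -0.807 to 0.343 for TUBB4B and -0.0192 to 0.486 for TUBB6. Depth limits TUBA4A and TUBB2A, with at most 16 and 4 fragments a library.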
